A study of Drosophila melanogaster with 20 samples.

Results

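Ecdysone-induced effector genes of disc eversion were followed in the wing imaginal disc of Drosophila, an epithelial sac of the larva. Such sacs turn inside out at metamorphosis to form the wing and back of the adult. The genes were ImpE1, ImpE2, ImpE3, ImpL1, Sb (Stubble), Eip74EF and Eip71CD. They were chosen by name, but with earlier results of these data known. A gene was taken where a probe set carried its symbol as the only gene symbol, which held for 6 of the 7 genes, with 1 probe set each, out of 13402 genes measured. Eip71CD appears in the array annotation under its current symbol MsrA and was matched by its gene ID. Eip74EF, an ETS-domain transcription factor gene, had no such probe set and is not analysed here.

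The steroid hormone ecdysone acts through a heterodimer of the nuclear receptors EcR and usp. Pulses of it switch on transcription factor genes, which in turn switch on or off the genes that change the shape and secretions of each tissue. In imaginal discs these include genes for apical and secreted proteins and for proteases that loosen the matrix over the epithelium, so that the disc can elongate and evert. The letters E and L in the names ImpE and ImpL stand for induction early or late in the response of discs to the hormone.

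Total RNA of about 20 pairs of discs a sample was hybridised to Affymetrix arrays, 1 array a sample. All 5 groups carried EGFR, the epidermal growth factor receptor, and 3 of them also psqRNAi, a construct that targets pipsqueak (psq), a gene for a nuclear BTB-domain protein, by RNA interference. E_Ctrl (EGFR) and EP_Ctrl (EGFR+psqRNAi) were taken at 12 hr, before tumors formed. E_EHT and EP_EHT, in the same order of genotypes, were early-hyperplastic tumors of day 4, and EP_LNT (EGFR+psqRNAi) were late-neoplastic tumors of day 11. Each group had 4 arrays, called biological replicates in the labels, and E_EHT was used with n = 3 because the submitters discarded its replicate 1 for technical problems. The labels do not give the driver of the transgenes, the cells that expressed them, the age of the animals, or the event from which the times were counted. Discs without EGFR are not analysed here, so in any comparison over time, disc age and tumor growth cannot be told apart.

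Levels are log2 values made by the submitters with RMA, a method that corrects the background, makes the distributions of the arrays nearly equal and sums up the probes of a probe set. The medians of the 19 arrays lay between 7.29 and 7.39, and values of the whole table ran from 2.67 to 14.19. Levels of different probe sets cannot be set against each other, so each gene was compared only with itself. Of 16 listed markers of the wing disc 13 were measured, and their mean log2 level was 9.44 to 10.28 on the 19 arrays. No other tissue was there for reference, so this level does not check the labelled tissue. The mean was lowest on EP_EHT replicate 2 (9.44) and EP_LNT replicate 1 (9.45). On EP_LNT replicate 4 it was 10.07, against 9.45 to 9.71 on the other 3 EP_LNT arrays. EP_EHT replicate 2 and EP_LNT replicate 4 also stood apart from their groups in several effector genes, and results that rest on these 2 arrays are given with and without them. They were picked after these values had been seen, so results without them are no independent support. Over all genes, other arrays lay about as far from the mean of the rest of their group. The SD of that difference was 0.358 for EP_EHT replicate 2 and 0.356 for EP_EHT replicate 4. It was 0.352 for EP_LNT replicate 4 and 0.361 for EP_LNT replicate 1. In these bulk samples, fewer cells of a type and less RNA per cell cannot be told apart.

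**Figure D1:**
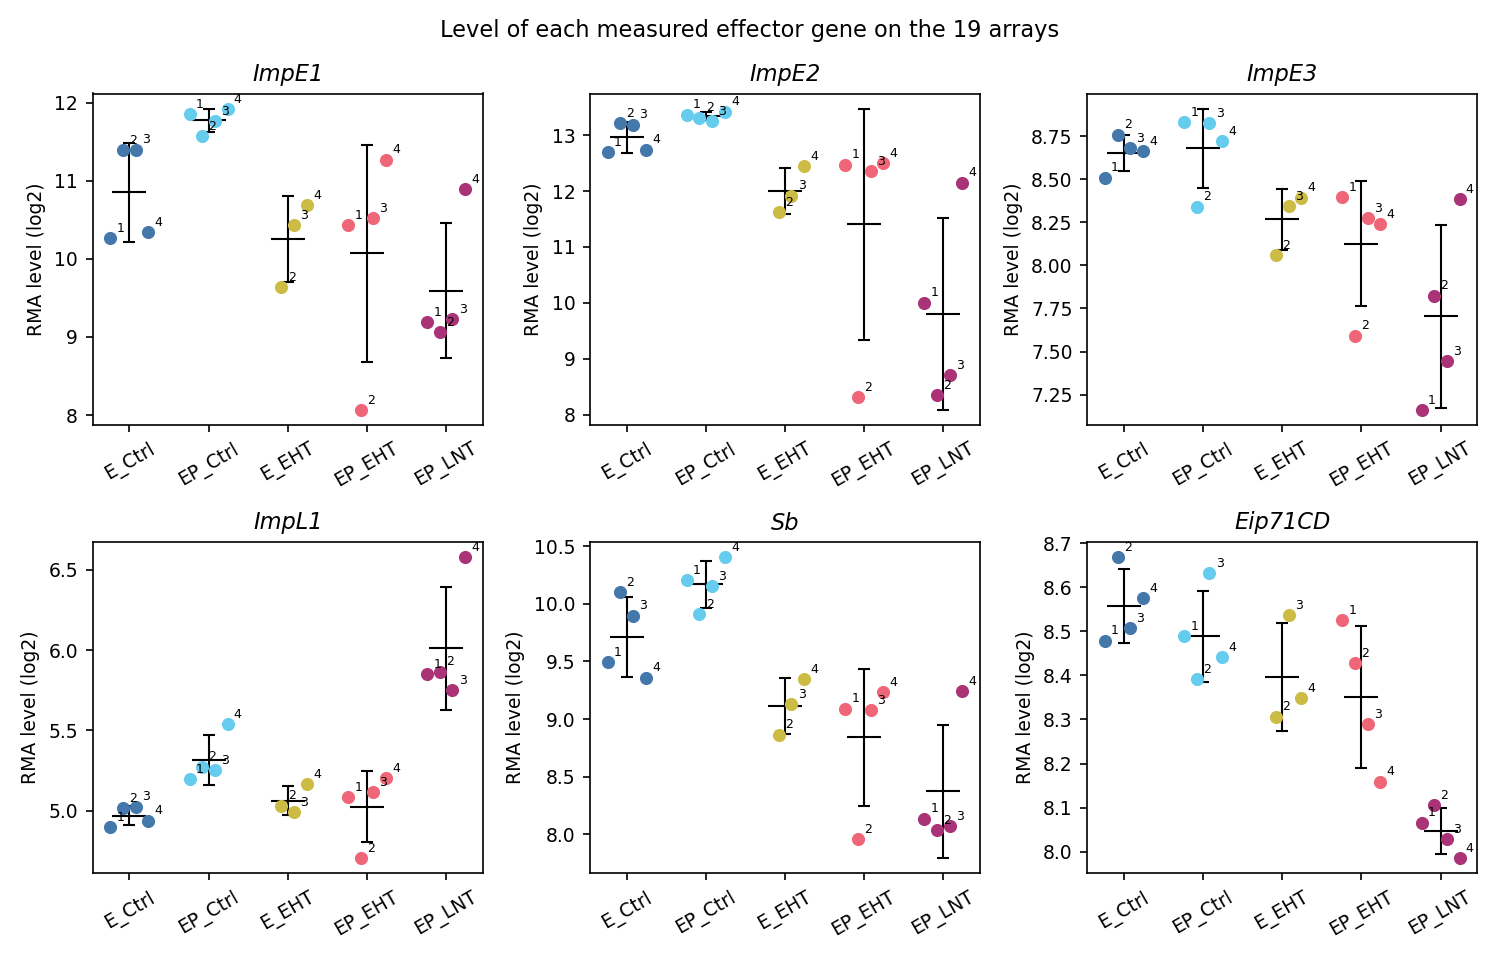
RMA level (log2, vertical axis, a separate scale for each gene) of the 6 measured effector genes on each of the 19 arrays, by group on the horizontal axis. Points are arrays with their replicate number, and lines give the group mean ± SD (n = 4, and n = 3 in E_EHT). ImpE1, ImpE2 and Sb were highest in EP_Ctrl, ImpL1 was highest in EP_LNT, and EP_EHT replicate 2 and EP_LNT replicate 4 lay apart from their groups in several panels.

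ImpE1, which encodes a cell surface protein with repeats of the LDL receptor type, was described first. On the E_Ctrl arrays, replicates 1 to 4, its log2 level was 10.27, 11.39, 11.40 and 10.34. On the EP_Ctrl arrays it was 11.86, 11.58, 11.76 and 11.91. The E_EHT arrays, replicates 2 to 4, had 9.64, 10.43 and 10.69. At day 4 with psqRNAi the spread was much wider, since EP_EHT replicate 2 lay more than 2 log2 units under the other 3 arrays of its group. The EP_EHT levels were 10.43, 8.07, 10.52 and 11.27, and the EP_LNT levels were 9.19, 9.06, 9.23 and 10.89. In order of their means the groups were EP_Ctrl (11.78 ± 0.15, SD), E_Ctrl (10.85 ± 0.63), E_EHT (10.25 ± 0.55), EP_EHT (10.07 ± 1.39) and EP_LNT (9.59 ± 0.87). EP_Ctrl was clear of every other group, and each of the other neighbours in this order overlapped.

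ImpE2 encodes a protein that discs secrete at their apical side. Its log2 level was 12.70, 13.22, 13.19 and 12.74 on the E_Ctrl arrays and 13.37, 13.31, 13.26 and 13.42 on the EP_Ctrl arrays. On the E_EHT arrays it was 11.63, 11.92 and 12.45. Its groups at 12 hr did not overlap each other or any later group. The EP_EHT arrays had 12.47, 8.31, 12.36 and 12.50, and the EP_LNT arrays had 10.002, 8.35, 8.71 and 12.15. EP_EHT replicate 2 thus lay at the level of the lower EP_LNT arrays, and EP_LNT replicate 4 near the other EP_EHT arrays. The means fell into the order EP_Ctrl (13.34 ± 0.07, SD), E_Ctrl (12.96 ± 0.28), E_EHT (12.00 ± 0.42), EP_EHT (11.41 ± 2.07) and EP_LNT (9.80 ± 1.72), with the last 3 groups overlapping in turn.

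ImpE3 is named, like both genes before it, for its early induction by the hormone. Its log2 level was 8.51, 8.76, 8.68 and 8.66 on the E_Ctrl arrays and 8.83, 8.34, 8.82 and 8.72 on the EP_Ctrl arrays. On the E_EHT arrays it was 8.06, 8.34 and 8.39. The groups at 12 hr overlapped, and the E_EHT arrays were all lower than every E_Ctrl array. The EP_EHT arrays had 8.40, 7.59, 8.27 and 8.24, and the EP_LNT arrays had 7.16, 7.82, 7.44 and 8.38. EP_LNT replicate 4 lay above the lowest EP_Ctrl array and the other 3 EP_LNT arrays did not. The means were 8.68 ± 0.23 (SD) in EP_Ctrl, 8.65 ± 0.10 in E_Ctrl, 8.27 ± 0.18 in E_EHT, 8.13 ± 0.36 in EP_EHT and 7.70 ± 0.53 in EP_LNT, and only E_Ctrl and E_EHT among the neighbours in this order did not overlap.

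Sb encodes a type II transmembrane serine protease that legs and wings need to elongate and evert. Its log2 level was 9.50, 10.10, 9.90 and 9.36 on the E_Ctrl arrays and 10.21, 9.91, 10.16 and 10.41 on the EP_Ctrl arrays. On the E_EHT arrays it was 8.87, 9.13 and 9.35. The EP_Ctrl arrays overlapped with those of E_Ctrl, and all 8 arrays of 12 hr lay above all 11 later ones, the nearest being E_Ctrl replicate 4 and E_EHT replicate 4. The EP_EHT arrays had 9.09, 7.96, 9.08 and 9.24, and the EP_LNT arrays had 8.14, 8.04, 8.07 and 9.24. Here too EP_EHT replicate 2 had a level like that of 3 EP_LNT arrays, and EP_LNT replicate 4 a level like that of 3 EP_EHT arrays. The means were 10.17 ± 0.20 (SD) in EP_Ctrl, 9.715 ± 0.35 in E_Ctrl, 9.12 ± 0.24 in E_EHT, 8.84 ± 0.59 in EP_EHT and 8.37 ± 0.58 in EP_LNT.

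ImpL1, a gene named for its late induction, had low values throughout, with a mean log2 level of 5.29 over the 19 arrays and 14.1% of genes below it. Its level was 4.90, 5.02, 5.03 and 4.94 on the E_Ctrl arrays and 5.20, 5.28, 5.26 and 5.54 on the EP_Ctrl arrays. On the E_EHT arrays it was 5.03, 4.99 and 5.16. Each EP_Ctrl array was above each E_Ctrl and E_EHT array. The EP_EHT arrays had 5.08, 4.70, 5.11 and 5.20, and the EP_LNT arrays had 5.85, 5.87, 5.75 and 6.58. EP_LNT was above every other group, and EP_LNT replicate 4 was the highest array of all. The group means were 6.01 ± 0.38 (SD) in EP_LNT, 5.32 ± 0.15 in EP_Ctrl, and 4.97 ± 0.06 to 5.06 ± 0.09 in the other 3 groups, which overlapped with each other. Whether a value this low lay above the background of the array is not known here.

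Eip71CD encodes methionine sulfoxide reductase A, an enzyme that repairs oxidised methionine residues. Its log2 level was 8.48, 8.67, 8.51 and 8.57 on the E_Ctrl arrays and 8.49, 8.39, 8.63 and 8.44 on the EP_Ctrl arrays. On the E_EHT arrays it was 8.31, 8.54 and 8.35. The EP_EHT arrays had 8.53, 8.43, 8.29 and 8.16, and the EP_LNT arrays had 8.07, 8.11, 8.03 and 7.99. The first 4 groups overlapped from neighbour to neighbour, and EP_LNT lay below every other array. The means were 8.56 ± 0.08 (SD) in E_Ctrl, 8.49 ± 0.10 in EP_Ctrl, 8.40 ± 0.12 in E_EHT, 8.35 ± 0.16 in EP_EHT and 8.05 ± 0.05 in EP_LNT. Its spread within a group was small (SD of 0.05 to 0.16), and neither EP_EHT replicate 2 nor EP_LNT replicate 4 lay apart from its group.

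The comparison of EP_LNT with EP_Ctrl asked how late-neoplastic tumors of day 11 differed from discs of the same genotype at 12 hr. Of the 6 effector genes, 5 fell and 1 rose (limma, Benjamini-Hochberg adjusted p below 0.05), where 22.1% of all 13402 genes passed the test, 10% lower and 12.1% higher. The median log2 fold change was -1.39 over the 6 genes and 0.01 over all genes. ImpE2 fell by 3.54 ± 0.82 (SE) on the log2 scale, which was 11.6-fold (limma adjusted p = 0.00453), and ImpE1 fell by 2.18 ± 0.55, which was 4.54-fold (adjusted p = 0.00779). Sb, the protease, fell by 1.80 ± 0.29, which was 3.48-fold, with the smallest adjusted p of the 6 (0.000207). ImpE3 fell by 0.97 ± 0.21 (1.96-fold, limma adjusted p = 0.00312), and Eip71CD, the reductase, fell by 0.44 ± 0.08 (1.36-fold, adjusted p = 0.000573). ImpL1 rose by 0.69 ± 0.15, which was 1.62-fold (limma adjusted p = 0.00232). The arrays of both groups did not overlap for ImpE1, ImpE2, Sb and Eip71CD among the genes that fell, against 11% of all genes with every EP_LNT array lower. They also did not overlap for ImpL1, against 12.9% of all genes with every EP_LNT array higher. Without EP_EHT replicate 2 and EP_LNT replicate 4 all 6 calls held, and ImpE2 was 20.0-fold lower (log2 fold change -4.32 ± 0.29, limma adjusted p = 6.15e-08). These arrays were left out for their values in these same genes, which narrows the SE by construction, so this adjusted p adds no support.

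**Figure D2:**
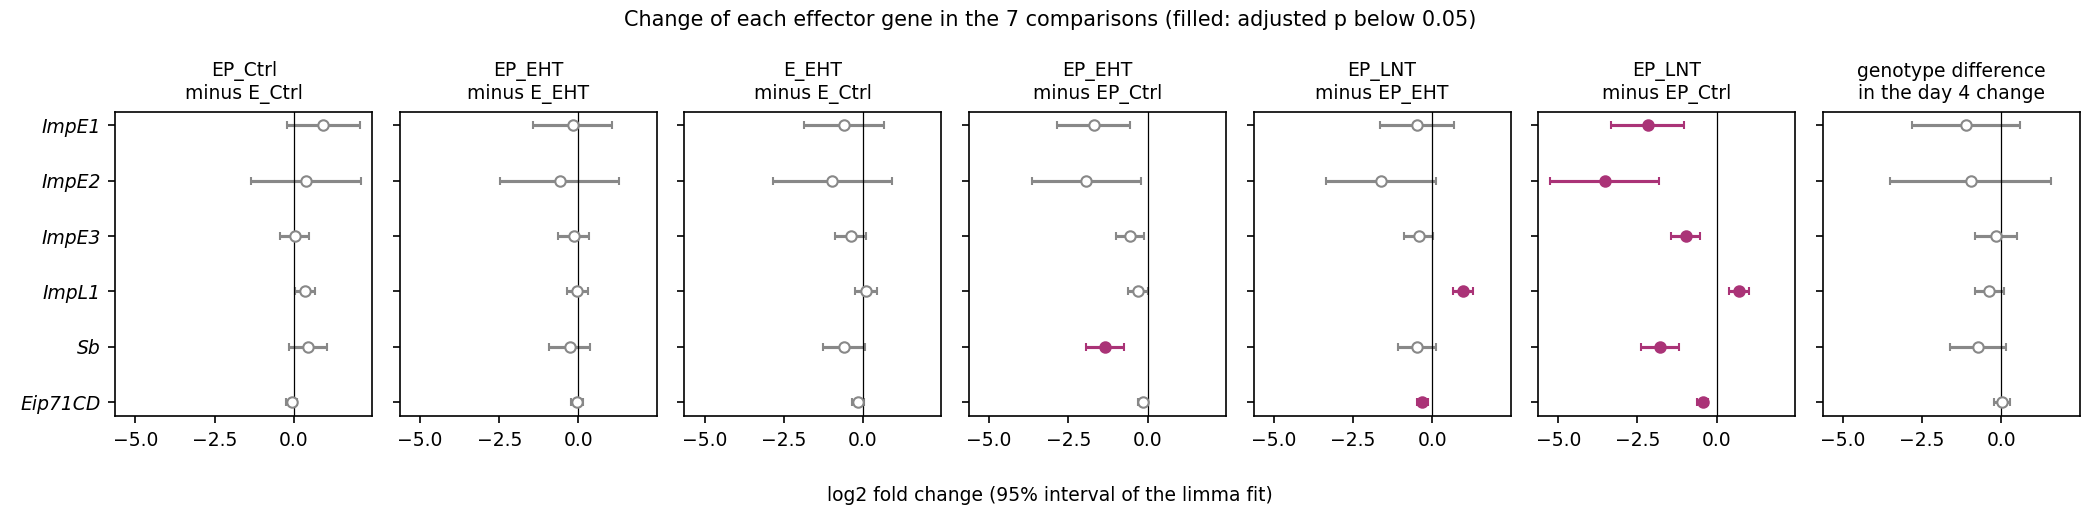
Log2 fold change (horizontal axis) of each effector gene in the 7 comparisons, 1 panel each, with the 95% interval of the limma fit. Filled points passed an adjusted p of 0.05, which were all 6 genes in EP_LNT against EP_Ctrl, Sb in EP_EHT against EP_Ctrl, and ImpL1 and Eip71CD in EP_LNT against EP_EHT.

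The comparison of EP_EHT with EP_Ctrl covered the first stage, from 12 hr to the early-hyperplastic tumors of day 4 with psqRNAi. Sb fell by 1.33 ± 0.29 (SE) on the log2 scale, which was 2.51-fold (limma adjusted p = 0.0127), and was the only effector gene of the 6 to pass, where 4.72% of all genes passed and 1.78% passed as lower. The other 5 genes also had estimates below 0. Log2 fold changes were -1.70 ± 0.55 for ImpE1 (limma adjusted p = 0.0907), -1.93 ± 0.82 for ImpE2 (0.22) and -0.55 ± 0.21 for ImpE3 (0.175). ImpL1 and Eip71CD, the gene of late induction and the reductase, had -0.29 ± 0.15 (adjusted p = 0.332) and -0.14 ± 0.08 (limma adjusted p = 0.405). Every EP_EHT array was below every EP_Ctrl array for ImpE1, ImpE2 and Sb, against 3.98% of all genes. The median over the 6 genes was -0.94, against 0.01 over all genes. ImpE1 passed the test without EP_EHT replicate 4 (log2 fold change -2.10, adjusted p = 0.0336). Without EP_EHT replicate 2 and EP_LNT replicate 4, Sb was again the only one to pass (-1.04 ± 0.16, adjusted p = 0.00189), and the log2 fold changes of ImpE1 and ImpE2 were smaller, at -1.03 (limma adjusted p = 0.0769) and -0.90 (adjusted p = 0.117).

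The comparison of EP_LNT with EP_EHT covered the step from early-hyperplastic to late-neoplastic tumors. ImpL1 rose by 0.99 ± 0.15 (SE) on the log2 scale, which was 1.98-fold (limma adjusted p = 0.000724), and Eip71CD fell by 0.30 ± 0.08, which was 1.23-fold (adjusted p = 0.0261). These were 2 of the 6 effector genes, where 6.99% of all genes passed, 4.49% higher and 2.5% lower. Both genes had groups that did not overlap, against 5.08% of all genes higher and 4.11% lower on every EP_LNT array. Log2 fold changes of the genes that did not pass were -0.48 ± 0.55 for ImpE1 (limma adjusted p = 0.711), -1.61 ± 0.82 for ImpE2 (0.292), -0.42 ± 0.21 for ImpE3 (0.289) and -0.47 ± 0.29 for Sb (0.399). Their 95% intervals were wide: from -3.34 to 0.13 for ImpE2 and from -1.07 to 0.13 for Sb.

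This step was also where EP_EHT replicate 2 and EP_LNT replicate 4 counted most. Without both of them, an alternative chosen after the data were seen, 5 effector genes passed where 14.9% of all genes did. ImpE2 was then 10.7-fold lower in EP_LNT (log2 fold change -3.42 ± 0.31, limma adjusted p = 5.15e-06), ImpE1 2.99-fold lower (-1.58 ± 0.33, adjusted p = 0.00401), Sb 2.08-fold lower (-1.05 ± 0.17, adjusted p = 0.000742) and ImpE3 1.77-fold lower (-0.83 ± 0.15, adjusted p = 0.00195). ImpL1 remained past the test at 0.69 ± 0.08, and Eip71CD no longer passed (-0.26 ± 0.09, limma adjusted p = 0.0794). In ImpE1, ImpE2, ImpE3 and Sb, each array left out had lain toward the other group of this comparison. Their removal widens the difference and narrows the SE by construction, so these adjusted p and the count of 5 add no support. Leaving out EP_EHT replicate 2 alone added ImpE2 (-2.64, adjusted p = 0.0128) and lost Eip71CD (adjusted p = 0.0577), and leaving out EP_LNT replicate 4 alone added ImpE3 (-0.65, limma adjusted p = 0.0308). Eip71CD was also lost without EP_EHT replicate 1 (adjusted p = 0.0924), EP_LNT replicate 1 (0.0524) or EP_LNT replicate 3 (limma adjusted p = 0.0722).

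**Figure D3:**
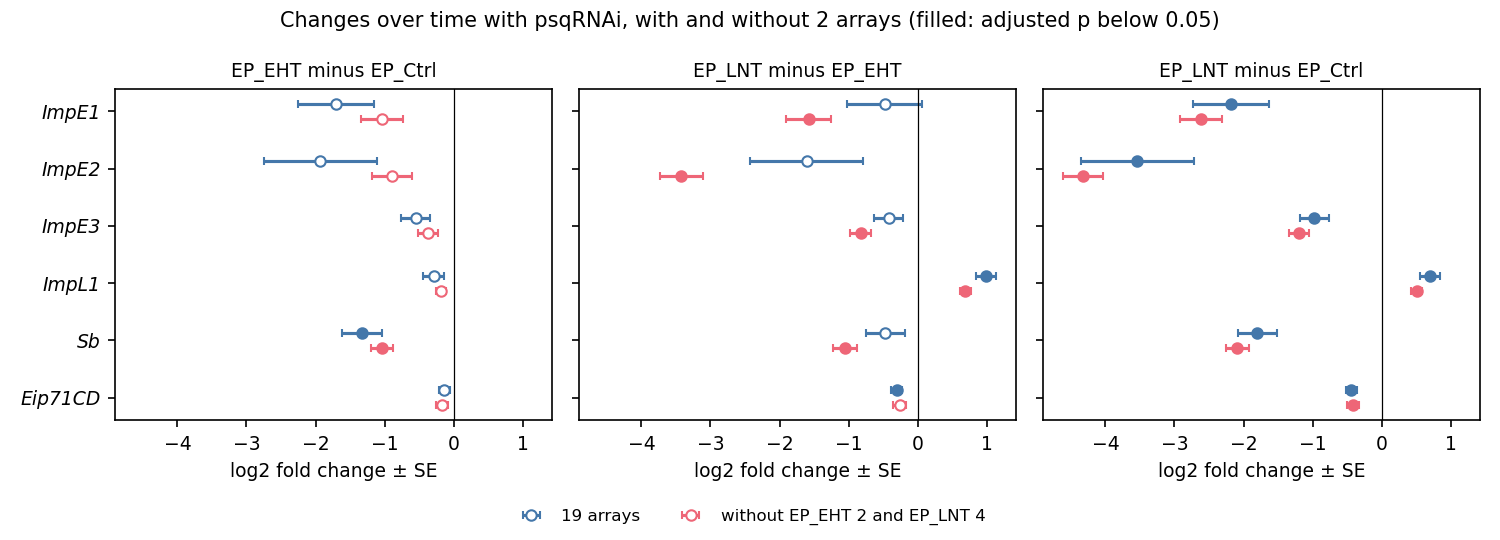
Log2 fold change ± SE (horizontal axis) of each effector gene in the 3 comparisons over time with psqRNAi, from all 19 arrays and without EP_EHT replicate 2 and EP_LNT replicate 4. Filled points passed an adjusted p of 0.05. In EP_LNT against EP_EHT, ImpE2 moved from -1.61 to -3.42 and passed without those arrays, while Eip71CD no longer did. Those arrays were picked for their values in these same genes, so a pass without them adds no support.

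With EGFR alone, the comparison of E_EHT with E_Ctrl covered the change from 12 hr to day 4, with n = 3 and 4. None of the 6 effector genes passed the limma test, at an adjusted p or at an unadjusted p of 0.05, where 6.58% of all genes passed the adjusted threshold and 22.9% the unadjusted one. Log2 fold changes were -0.96 ± 0.88 (SE) for ImpE2 (limma adjusted p = 0.567), -0.60 ± 0.31 for Sb (0.258), -0.60 ± 0.59 for ImpE1 (0.597) and -0.39 ± 0.23 for ImpE3 (0.341). ImpL1 had 0.09 ± 0.16 (0.779), and Eip71CD had -0.16 ± 0.09 (limma adjusted p = 0.278). ImpE2, ImpE3 and Sb were lower on every E_EHT array than on every E_Ctrl array, against 14.8% of all genes. Without EP_EHT replicate 2 and EP_LNT replicate 4, which are not in these groups but widen the shared estimate of spread, the SE of ImpE2 was 0.29 and that of Sb 0.16. ImpE2 (adjusted p = 0.0458) and Sb (limma adjusted p = 0.0276) then passed, where 11.7% of all genes did.

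The comparison of EP_Ctrl with E_Ctrl asked what psqRNAi changed in EGFR discs before tumors formed. None of the 6 effector genes passed the limma test at an adjusted p of 0.05, where 2.43% of all genes did, and ImpL1 alone passed an unadjusted threshold of 0.05, as did 15.6% of all genes. The log2 fold change was 0.93 ± 0.55 (SE) for ImpE1 (limma adjusted p = 0.443). It was 0.46 ± 0.29 for Sb (0.471), 0.38 ± 0.82 for ImpE2 (0.875) and 0.35 ± 0.15 for ImpL1 (limma adjusted p = 0.261). ImpE3 had 0.02 ± 0.21 (adjusted p = 0.976) and Eip71CD -0.07 ± 0.08 (limma adjusted p = 0.735). For ImpE1, ImpE2 and ImpL1 every array with psqRNAi was above every array without it, against 3.88% of all genes. E_Ctrl itself was uneven: ImpE1, ImpE2 and Sb were lower on replicates 1 and 4 than on replicates 2 and 3, while the EP_Ctrl arrays lay close together. ImpL1 passed without EP_EHT replicate 2 and EP_LNT replicate 4 (0.35 ± 0.07, limma adjusted p = 0.0122), where 3.86% of all genes did.

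At day 4 the genotypes were compared in EP_EHT and E_EHT. None of the 6 effector genes passed, where 3.17% of all genes did, and the arrays of both groups overlapped for each gene. Log2 fold changes were between -0.59 (ImpE2) and -0.04 (ImpL1), with limma adjusted p of 0.711 to 0.937 and 95% intervals that held 0 and reached from -2.46 to 1.28 for ImpE2 and from -0.23 to 0.13 for Eip71CD. The signs were not stable to the choice of arrays. Without EP_EHT replicate 2 and EP_LNT replicate 4, the estimates of 5 genes were above 0, such as 0.49 ± 0.33 for ImpE1 (limma adjusted p = 0.533) and 0.44 ± 0.31 for ImpE2 (0.56), and Eip71CD was at -0.07. ImpE1 and ImpL1 were also above 0 without E_EHT replicate 4 (0.04 and 0.0143), and Eip71CD was above 0 without EP_EHT replicate 4 (0.0176) or E_EHT replicate 3 (0.0235).

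Whether the step from 12 hr to day 4 depended on the genotype was tested as an interaction. No effector gene passed, nor did any other gene (0% called by limma; 345 genes without EP_EHT replicate 4 and 139 with array weights, none of them an effector gene), although 2177 genes (16.2%) had an unadjusted p under 0.05, none of them an effector gene. The estimate was -1.10 ± 0.80 (SE) for ImpE1 (limma adjusted p = 0.5), -0.97 ± 1.21 for ImpE2 (0.716), -0.73 ± 0.42 for Sb (0.394), -0.38 ± 0.22 for ImpL1 (0.385), -0.17 ± 0.32 for ImpE3 (0.832) and 0.02 ± 0.12 for Eip71CD (0.945). The estimates without EP_EHT replicate 2 and EP_LNT replicate 4 were -0.44 for ImpE1, -0.44 for Sb, 0.07 for ImpE2 and 0.01 for ImpE3. The interval of Sb over the 19 arrays ran from -1.62 to 0.16, so that the fall of Sb with psqRNAi, which passed its test, was not shown to differ from the value with EGFR alone, which did not.

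The effector genes differed among themselves in how they moved from array to array. ImpE1, ImpE2, ImpE3 and Sb moved together: over the 19 arrays, the Pearson correlation of their log2 levels was 0.84 to 0.95 for the 6 pairs. It was 0.70 to 0.96 after the group means were taken off. Without EP_EHT replicate 2 and EP_LNT replicate 4 it was 0.83 to 0.95 over 17 arrays, and -0.32 to 0.88 within groups, lowest for ImpE2 with ImpE3 and highest for ImpE1 with Sb (0.88). These values describe arrays that share groups and normalization, and genes are not independent measurements. ImpL1 had a correlation of -0.30 to -0.03 with those 4 genes over the 19 arrays and of 0.76 to 0.88 within groups, which became 0.11 to 0.585 within groups without EP_EHT replicate 2 and EP_LNT replicate 4. Eip71CD had 0.425 to 0.70 with the 4 genes over the 19 arrays and -0.26 to 0.06 within groups. ImpL1 and Eip71CD had -0.76 with each other over the 19 arrays and -0.34 within groups.

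For each effector gene, the 3 genes of the whole table with the most similar pattern were named by their Pearson correlation over the 19 arrays. Sb was matched most closely of the 6, by CG1273 (r = 0.993), cysu (0.984) and CG3823 (0.981). ImpE1 was matched by Glut1 (0.971), which encodes a glucose transporter, mub (0.970) and the nuclear receptor gene Hr39 (0.967). ImpE2 was matched by the serpin gene Spn43Aa (0.973), lncRNA:CR43314 (0.942) and Np (0.937), which encodes a transmembrane serine protease. For ImpE3 the genes were cysu (0.956), Gli (0.954), which encodes the junction protein Gliotactin, and CD98hc (0.954), which encodes the heavy chain of amino acid transporters. ImpL1 was matched by superdeath (0.929), the Hox gene Scr (0.894) and rau (0.889), and Eip71CD by CG8460 (0.912), Tmem214 (0.894) and CG31075 (0.888). Within groups the closest match had 0.986 for Sb, 0.956 for ImpE2, 0.947 for ImpE1, 0.92 for ImpE3, 0.814 for ImpL1 and 0.518 for Eip71CD. These values include EP_EHT replicate 2 and EP_LNT replicate 4, and were not computed within groups without them. Among the other matches named, ImpE2 with Np went from 0.856 to 0.107 within groups without those arrays. ImpE1 with Hr39 went from 0.933 to 0.879.

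**Figure D4:**
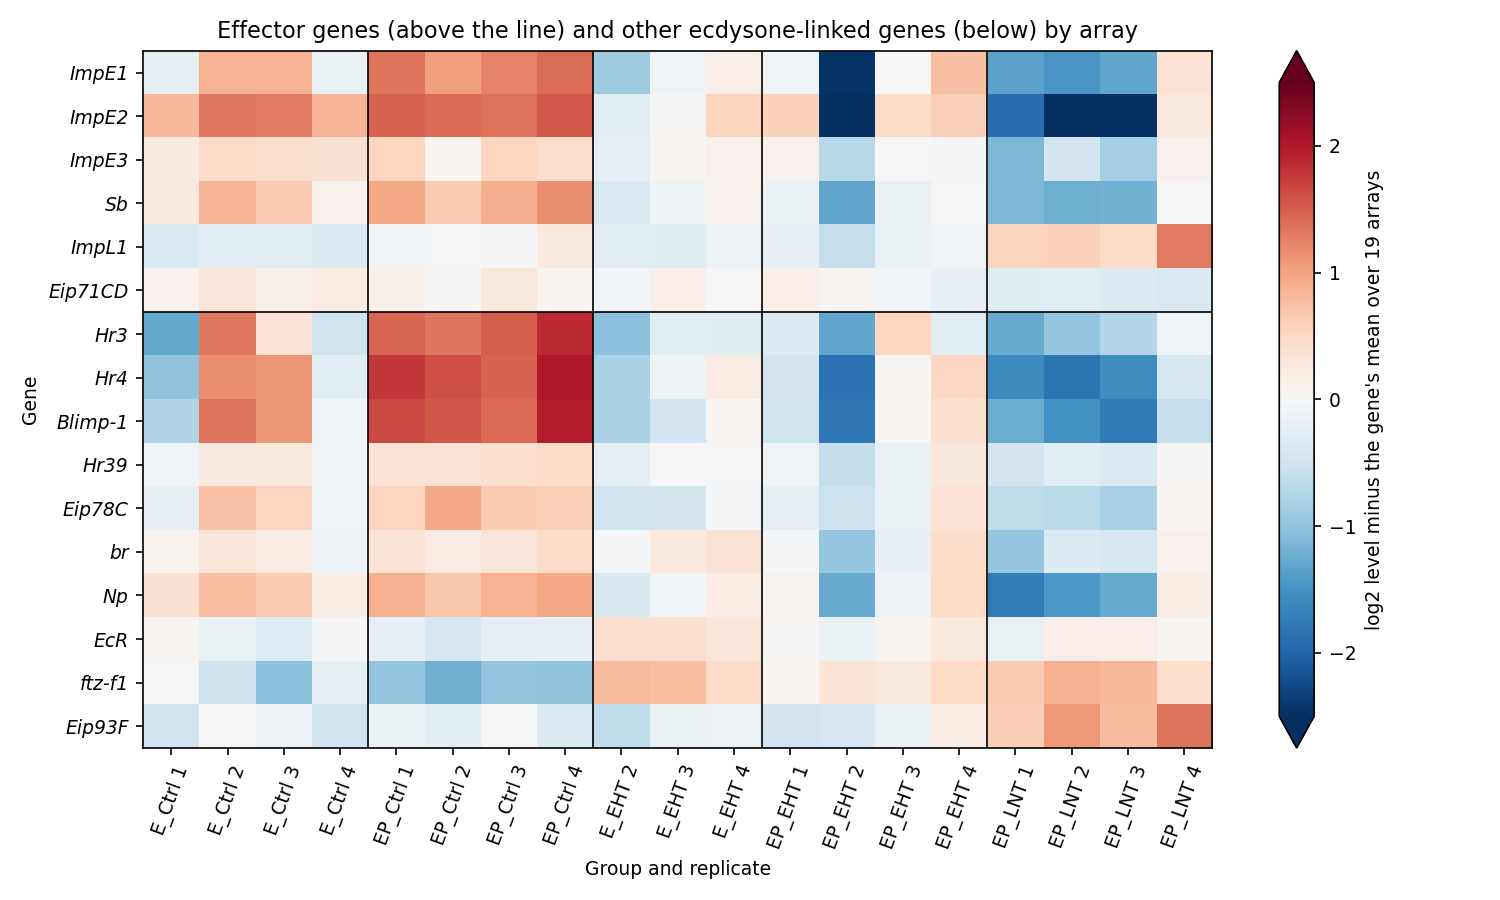
Log2 level minus the mean of the gene over the 19 arrays (colour, from -2.5 to 2.5 or beyond) of the 6 effector genes and 10 other genes linked to ecdysone or to the apical matrix, by array. Hr3, Hr4, Blimp-1 and Np followed ImpE1, ImpE2 and Sb, low on EP_EHT replicate 2 and higher on EP_LNT replicate 4 than on the other EP_LNT arrays, and Eip93F followed ImpL1 in EP_LNT.

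The genes that stand above the effectors in the ecdysone response were read beside them, 12 of a list of 14 being measured. In EP_LNT against EP_Ctrl, 6 of the 12 fell and 3 rose, where 10% of all genes passed as lower and 12.1% as higher, with a median of -0.39 over the list and 0.01 over all genes. The nuclear receptor genes Hr4 and Hr3 fell by 3.07 ± 0.50 (SE) and 2.30 ± 0.45 on the log2 scale (limma adjusted p = 0.000272 and 0.00122), and Blimp-1, which encodes a transcriptional repressor, fell by 2.92 ± 0.46 (0.000195). br, a BTB zinc-finger gene of the early response, fell by 0.74 ± 0.24 (limma adjusted p = 0.0355). The nuclear receptor gene ftz-f1 rose by 1.74 ± 0.17 (1.92e-06) and EcR, the hormone receptor gene, by 0.32 ± 0.10 (limma adjusted p = 0.0284). Its partner usp passed in none of the 7 comparisons and had -0.09 ± 0.07 in this one (adjusted p = 0.363).

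In EP_EHT against EP_Ctrl 4 of the 12 genes fell and 1 rose, where 4.72% of all genes passed, 1.78% as lower. Log2 fold changes were -2.14 ± 0.50 (SE) for Hr4 (limma adjusted p = 0.0213), -2.11 ± 0.46 for Blimp-1 (0.0138), -1.89 ± 0.45 for Hr3 (0.0227), -0.55 ± 0.15 for Hr39 (0.0471) and 1.33 ± 0.17 for ftz-f1 (0.000232). Without EP_EHT replicate 2 and EP_LNT replicate 4 the counts were 2 lower and 2 higher, where 4.09% of all genes passed. In EP_LNT against EP_EHT only Eip93F of the 12 passed, a gene for a factor of late stages of metamorphosis, which rose by 1.17 ± 0.17 (limma adjusted p = 0.000695), and without those 2 arrays 3 genes of the list were also lower. Over all genes 6.99% passed in this comparison, and 14.9% without those 2 arrays. Eip93F and ImpL1 had a correlation of 0.89 over the 19 arrays, of 0.54 within groups and of 0.22 within groups without those 2 arrays. In E_EHT against E_Ctrl ftz-f1 (1.12 ± 0.18, limma adjusted p = 0.00272) and EcR (0.50 ± 0.11, 0.0144) rose, and no gene of the list fell, where 6.58% of all genes passed. None of the 12 passed in the comparisons between genotypes, except that 1 did at 12 hr without those 2 arrays.

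Hr4, the gene of the cascade list with the largest change in EP_LNT against EP_Ctrl, was also read array by array. It had log2 levels of 7.02 and 7.75 on E_Ctrl replicates 1 and 4, against 9.20 and 9.12 on replicates 2 and 3. It had 9.50 to 10.02 on the EP_Ctrl arrays, all above E_Ctrl, which also held for 3.88% of all genes. Its log2 fold change in EP_Ctrl against E_Ctrl did not pass (1.46 ± 0.50, SE, limma adjusted p = 0.158). Hr4 had 6.19 on EP_EHT replicate 2, against 7.58 to 8.55 on the other 3 arrays of that group. On EP_LNT replicate 4 it had 7.58, against 6.20 to 6.48 on the other 3. Its correlation was 0.95 with ImpE1, 0.94 with Sb, 0.85 with ImpE2 and 0.80 with ImpE3 over the 19 arrays, and 0.92, 0.87, 0.74 and 0.61 within groups. The values within groups without EP_EHT replicate 2 and EP_LNT replicate 4 were 0.92, 0.83, 0.47 and 0.22 in the same order. With ImpL1, Hr4 had -0.17 over the 19 arrays, 0.70 within groups and 0.51 within groups without those 2 arrays.

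Genes of related functions were counted from lists chosen by name. Of 9 measured genes of the apical matrix and its proteases, 3 fell and 4 rose in EP_LNT against EP_Ctrl, where 10% of all genes passed as lower and 12.1% as higher. Np, whose product is a transmembrane serine protease like that of Sb, fell by 1.92 ± 0.36 (SE) on the log2 scale (limma adjusted p = 0.000864). The zona pellucida domain genes dy and pio fell by 0.92 ± 0.15 (0.000243) and 0.82 ± 0.13 (0.000216), and Timp, an inhibitor of metalloproteases, rose by 0.88 ± 0.20 (limma adjusted p = 0.00336). In EP_EHT against EP_Ctrl dy and pio fell, by 0.62 ± 0.15 and 0.60 ± 0.13, and none of the 9 rose. Of all genes, 1.78% passed as lower there. In EP_LNT against EP_EHT Mmp2 and Timp rose, by 0.87 ± 0.17 and 0.88 ± 0.20, and none fell. Of all genes, 4.49% passed as higher there. Np had a correlation of 0.97 with Sb over the 19 arrays, of 0.94 within groups and of 0.75 within groups without EP_EHT replicate 2 and EP_LNT replicate 4.

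Among 10 JNK and PVR genes that act in disc eversion and thorax closure, 6 rose and 1 fell in EP_LNT against EP_Ctrl, against the same 12.1% higher and 10% lower of all genes. egr, which encodes the TNF ligand of the pathway, rose by 1.59 ± 0.19 (SE, limma adjusted p = 1.73e-05), and Pvf1, which encodes a ligand of PVR, by 1.14 ± 0.11 (2.3e-06). puc, a phosphatase gene and target of the pathway, rose by 0.45 ± 0.11 (limma adjusted p = 0.00606). Of 6 measured ETS-domain genes, relatives of Eip74EF, 1 rose in EP_LNT against EP_Ctrl, 1 in EP_EHT against EP_Ctrl and 2 in E_EHT against E_Ctrl. None of the 6 fell there, and 22.1%, 4.72% and 6.58% of all genes passed, in the same order. Ets21C rose by 1.87 ± 0.20 in EP_LNT against EP_Ctrl (limma adjusted p = 4.25e-06) and by 1.52 ± 0.20 in EP_EHT against EP_Ctrl (0.00032). In E_EHT against E_Ctrl, Ets21C rose by 1.27 ± 0.21 (limma adjusted p = 0.00314) and Ets98B by 0.31 ± 0.09 (0.0391).

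Of 8 measured genes of methionine sulfoxide and thioredoxin reduction, to which Eip71CD is related, Sps2 rose by 0.49 ± 0.14 (SE) in EP_LNT against EP_Ctrl (limma adjusted p = 0.0182) and none fell. Over all genes, 12.1% passed as higher and 10% as lower in that comparison. Of 8 other measured genes named for ecdysone or late-larval induction, ImpL2, which encodes an insulin-binding protein, rose by 0.33 ± 0.11 in that comparison (limma adjusted p = 0.0385) and by 0.58 ± 0.11 in EP_LNT against EP_EHT (0.00345), and fell by 0.43 ± 0.12 in E_EHT against E_Ctrl (limma adjusted p = 0.0393). Cth, listed as Eip55E, fell by 0.28 ± 0.06 in EP_LNT against EP_Ctrl (limma adjusted p = 0.00396) and by 0.34 ± 0.07 in E_EHT against E_Ctrl (0.00852), and rose by 0.27 ± 0.07 in EP_EHT against E_EHT (0.0393). Of 11 measured genes of ecdysteroid synthesis, import and turnover, 1 passed in each of the 4 comparisons over time. Over all genes, 6.58% passed in E_EHT against E_Ctrl and 4.72% in EP_EHT against EP_Ctrl. The shares were 6.99% in EP_LNT against EP_EHT and 22.1% in EP_LNT against EP_Ctrl. A count of 1 in 11 does not set this list apart from all genes. Oatp74D, the ecdysone importer gene, rose by 0.47 ± 0.11 in E_EHT against E_Ctrl (limma adjusted p = 0.0186). Of the synthesis genes, sad rose by 0.61 ± 0.14 in EP_EHT against EP_Ctrl (0.0227) and fell by 0.52 ± 0.14 in EP_LNT against EP_EHT (limma adjusted p = 0.0392), and sro fell by 0.22 ± 0.07 in EP_LNT against EP_Ctrl (0.0382).

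Markers of other tissues also changed in EP_LNT. The counts given are for EP_LNT against EP_Ctrl, where 12.1% of all genes passed as higher and 10% as lower. The mean log2 level of 9 measured haemocyte markers was 9.97, 10.01 and 9.92 on EP_LNT replicates 1 to 3, 8.53 on EP_LNT replicate 4 and 8.32 to 9.11 on the other 15 arrays, and 5 of the 9 rose. That of 5 measured fat body markers was 9.71 to 10.02 in EP_LNT and 10.66 to 11.85 on all other arrays, and 4 of the 5 fell and 1 rose. That of 11 salivary gland markers was 6.89 to 7.80 in EP_LNT and spread from 7.07 to 11.18 on the other arrays, and 3 of the 11 fell. Of the 13 wing disc markers 7 fell and 2 rose. Muscle and myoblast markers counted 3 higher and 3 lower of 6, tracheal markers 2 higher and 1 lower of 4, neuron and glia markers 1 higher of 5, and prothoracic gland markers 1 lower of 5. Eip71CD was lower and ImpL1 higher on all 4 EP_LNT arrays than on every array of the other groups. The levels of ImpE1, ImpE2, ImpE3, Sb and ImpL1 on EP_LNT replicate 4 were above those of the other 3, and that of Eip71CD was below them. The part of these tissues in the levels of the effector genes was not tested.

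The targeted genes were read on the same arrays. psq fell by 0.45 ± 0.10 (SE) on the log2 scale in EP_EHT against E_EHT (limma adjusted p = 0.0163) and by 0.26 ± 0.09 in EP_LNT against EP_Ctrl (0.0474), and had -0.09 ± 0.09 in EP_Ctrl against E_Ctrl (limma adjusted p = 0.675). Egfr passed in none of the 7 comparisons. The positions of the psq and Egfr probes relative to the RNAi target and the transgene are not known here, so these values do not check the labels.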

How the data were processed

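The deposited table holds log2 expression levels. The authors obtained them by RMA, as the submitters' processing notes state (limma is named too, neither with a version). Settings of the background correction, the summarisation and the genome build are not given in the sources used here. RMA removes a shift shared by most genes and compresses differences between dim probe sets, such as that of ImpL1. Of 16322 probe sets, 13441 had 1 gene symbol in the platform annotation, 555 several and 2326 none used here. Where 37 genes had several probe sets, the one with the highest mean was used, which left 13402 genes. Current names came from the RefSeq gene table (Release 6), which matched 13064 probe sets. No probe sequences, transcripts or coordinates are printed.

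All 19 arrays were fitted together, each group having its own mean (limma 3.58.1, R 4.3.3, lmFit and eBayes, 14 residual and 2.63 prior degrees of freedom). P-values are two-sided and Benjamini-Hochberg adjusted over all genes of a comparison, with a threshold of 0.05. They measure the spread between samples that the labels call biological replicates, whose animals are not described further. An array has no read depth, so the number of arrays limits the precision: the median SE over all genes was 0.0929 with 4 arrays a group, 0.1 in comparisons with E_EHT and 0.137 for the interaction. Pairs of arrays within a group had an SD of their differences of 0.23 to 0.50, and none was counted as a copy. The model was tested on simulated data.

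The effector genes and the gene lists were chosen with earlier results of these data known. All effector genes were named in every comparison. Of each list, at most 4 passing genes with the largest absolute log2 fold change were named, and EcR, usp, br, psq and Egfr could always be named. A few list entries whose place in a list could not be supported were removed after values had been seen. The result of 1 list is not reported here. For each effector gene, the 3 genes with the highest correlation were named too. The alternatives tried were array weights, a robust variance with a trend, fits with only the groups compared, dim genes removed (the lowest 25%), centring on array medians, quantile normalization once more, the mean of probe sets, E_EHT replicate 1 kept, the replicate number as a block, each array left out, and EP_EHT replicate 2 and EP_LNT replicate 4 left out together.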

Additional observations from a re-analysis of the deposited data

Results flagged for a closer look

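In groups of 4 arrays, 24 sets of values were checked for an array far from the other 3 (Dixon's criterion, 95% level). Of these sets 5 had one, where chance gives about 1 in 20 for independent sets. All 5 were on 2 arrays. The sets were the 6 effector genes on the same arrays. ImpE1, ImpE2, ImpE3 and Sb moved together within groups (Pearson correlation 0.70 to 0.96), so 1 deviant array can count several times. The share of all genes with such an array is not known here. The count of 5 therefore does not set the effector genes apart. EP_LNT replicate 4 had an ImpE1 level of 10.89, against 9.06 to 9.23 on the other EP_LNT arrays, a Sb level of 9.24, against 8.04 to 8.14, and an ImpL1 level of 6.58, against 5.75 to 5.87. EP_EHT replicate 2 had an ImpE2 level of 8.31, against 12.36 to 12.50 on the other EP_EHT arrays, and a Sb level of 7.96, against 9.08 to 9.24. The wing disc marker mean was 9.44 on EP_EHT replicate 2, against 9.84 to 10.28 on the other 3, and the haemocyte marker mean was 8.53 on EP_LNT replicate 4, against 9.92 to 10.01 on the other 3. The part of either in these levels was not tested.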

How the results depend on the processing

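Under 29 alternatives, 1155 of the effector genes' results kept direction and side of the threshold, 15 newly passed, 6 no longer passed and 35 changed sign. All 6 genes passed in EP_LNT against EP_Ctrl under every alternative that tested them (5 without dim genes, since ImpL1 was then not tested), and none passed in EP_EHT against E_EHT or in the interaction. In EP_LNT against EP_EHT, 2 genes passed; 1 passed without dim genes, 1 with only the groups compared, 5 with array weights and 5 with EP_EHT replicate 2 and EP_LNT replicate 4 both left out, and 1 to 3 when single arrays were left out. In EP_EHT against EP_Ctrl, 2 passed with array weights, and 1 to 2 when single arrays were left out. In E_EHT against E_Ctrl, 1 passed with only the groups compared and 2 without both arrays, and in EP_Ctrl against E_Ctrl 1 without both arrays. Leaving out arrays or fitting the compared groups alone changes the estimate of spread by construction, and the cause was otherwise not tested.

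Signs changed only for estimates that had not passed. In EP_EHT against E_EHT, ImpE1 was at 0.14 with E_EHT replicate 1 kept, at 0.059 with array weights and at 0.49 without both arrays; ImpE2 was at 0.44, ImpE3 at 0.0374, ImpL1 at 0.0708 and Sb at 0.0199 without both arrays. With E_EHT replicate 1 kept, ImpE3 was at 0.0244 and ImpL1 at 0.0719, ImpL1 being at 0.0199 with array weights. Leaving out single arrays gave -0.58 to 0.49 for ImpE1, -0.95 to 0.44 for ImpE2, -0.24 to 0.0374 for ImpE3, -0.0954 to 0.0708 for ImpL1, -0.41 to 0.0199 for Sb and -0.10 to 0.0235 for Eip71CD. In the interaction, Eip71CD was at -0.0497 after quantile normalization and at -0.0035 without both arrays, ImpE2 at 0.0654 and ImpE3 at 0.0125 without both. Single arrays left out gave -0.036 to 0.0922 for Eip71CD, -1.33 to 0.0654 for ImpE2 and -0.28 to 0.0125 for ImpE3. In EP_Ctrl against E_Ctrl, ImpE3 ranged from -0.0258 to 0.14 when single arrays were left out, and ImpL1 in E_EHT against E_Ctrl was at -0.0157 with E_EHT replicate 1 kept.

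Over all genes, leaving out single arrays moved the number that passed from 882 to between 273 and 1188 in E_EHT against E_Ctrl, from 325 to between 153 and 512 in EP_Ctrl against E_Ctrl, from 425 to between 179 and 1134 in EP_EHT against E_EHT, from 633 to between 307 and 855 in EP_EHT against EP_Ctrl, and from 937 to between 539 and 1510 in EP_LNT against EP_EHT. Other alternatives gave 621 to 2238, 206 to 873, 64 to 804, 267 to 828 and 252 to 1992 in that order. In the interaction, where 0 had passed, 345 did without EP_EHT replicate 4 and up to 139 under the other alternatives that left out no single array. Of 36 correlations between the deviations of same-numbered arrays of different groups, 9 were above 0.1, with a range of -0.40 to 0.37. Arrays of different numbers were not compared, so these values cannot show whether the numbers pair the samples. With the replicate number as a block, the counts of effector genes that passed did not change: 6 in EP_LNT against EP_Ctrl, 2 in EP_LNT against EP_EHT, 1 in EP_EHT against EP_Ctrl and 0 in the other 4 comparisons.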
